A study of Mus musculus with 16 samples.

Results

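The 10 genes studied here belong to the interleukin 6 and NF-kappa-B pathways and were followed across 16 liver expression arrays of mice after partial hepatectomy. The members were the genes Il6ra, Il6st, Stat3, Socs3, Il1b, Il1rn, Tnf, Nfkbia, Nfkbid and Nfkbiz, taken from 27 probe sets annotated to these symbols alone, and for each gene the probe set with the highest mean over the 16 arrays was used. They were 10 of 18193 genes with a probe set of their own. A filter that asked for at least 4 of 16 arrays above their own median signal left 13575 genes for testing, and 9 of the 10 members passed it. Tnf did not, because none of its 16 signals reached the median of its array.

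The study asked how liver regrowth proceeds when MET, EGFR or both of these growth factor receptors are blocked. All mice were labelled Metff/ff:ERCre+/+ on a 129SV/C57BL/6 background, which is a Met gene flanked by recombination sites with an inducible Cre recombinase. In the MET_KO arm exon 16 of Met had been deleted through tamoxifen, and in the MET_FLOX arm it had not. MET_KO_canertinib and MET_FLOX_canertinib mice also took canertinib, which inhibits kinases of the EGFR family, with their food at an intended 80 mg/kg. Part of the liver was removed and RNA was taken at days 0, 2, 7 and 14, with 1 array for each of the 4 arms at each day. The sources used here do not say whether an array held 1 animal or a pool, or whether flox mice also received tamoxifen. The p-values therefore measure only the spread between these arrays.

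Interleukin 6 binds its receptor, encoded by Il6ra, and the shared signal transducer gp130, encoded by Il6st. JAK kinases on gp130 then activate the transcription factor STAT3, which induces acute phase genes in hepatocytes and also induces Socs3, the inhibitor that shuts the receptor complex down. Tumour necrosis factor and interleukin 1 beta act through NF-kappa-B, which is held in the cytoplasm by inhibitors such as the product of Nfkbia and which in turn induces Nfkbia. Both pathways are known for their activity in the first hours after partial hepatectomy, when cytokines from Kupffer cells reach hepatocytes, and no array here was taken between day 0 and day 2.

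The promoters of 3 members are shown because these genes are textbook targets of the factors named above, or carry the differences described later. Each run holds the 250 bases before an annotated start, from RefSeq on GRCm38.p6, 5′ to 3′ on the gene's strand. The Nfkbia window lies directly upstream of the gene. The Socs3 and Nfkbid windows lie inside the annotated genes, which begin on their strands at bases 117970336 and 30421731. These 2 windows are therefore not upstream of the whole gene. Capitals mark a STAT motif (TTCNNNGAA, either strand) in Socs3 and kappa B motifs in Nfkbia and Nfkbid, and the motifs do not overlap here.
Socs3, chr11:117969367-117969616, minus strand: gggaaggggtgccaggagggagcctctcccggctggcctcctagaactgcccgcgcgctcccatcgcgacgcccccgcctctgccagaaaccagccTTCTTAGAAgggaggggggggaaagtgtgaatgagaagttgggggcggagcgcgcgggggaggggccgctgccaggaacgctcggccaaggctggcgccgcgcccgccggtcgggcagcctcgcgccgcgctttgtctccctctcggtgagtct
Nfkbia, chr12:55492648-55492897, minus strand: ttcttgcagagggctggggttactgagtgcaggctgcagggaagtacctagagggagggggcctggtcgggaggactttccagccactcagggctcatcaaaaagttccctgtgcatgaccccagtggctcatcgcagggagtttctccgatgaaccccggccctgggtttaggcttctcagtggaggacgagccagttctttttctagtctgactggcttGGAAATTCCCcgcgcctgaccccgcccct
Nfkbid, chr7:30422156-30422405, plus strand: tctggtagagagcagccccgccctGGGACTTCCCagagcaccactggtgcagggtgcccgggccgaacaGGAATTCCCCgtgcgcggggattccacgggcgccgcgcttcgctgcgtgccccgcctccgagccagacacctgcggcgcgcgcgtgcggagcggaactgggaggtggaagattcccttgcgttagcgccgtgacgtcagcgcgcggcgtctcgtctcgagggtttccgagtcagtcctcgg

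The Socs3 match, TTCTTAGAA, begins 154 bases before the start used here, which lies inside the annotated gene. In Nfkbia the kappa B match GGAAATTCCC begins 29 bases before the start, and the Nfkbid window holds GGGACTTCCC at 226 bases and GGAATTCCCC at 181 bases. Of 32851 such windows of 250 bases over 27025 genes, 7.02% held a STAT motif and 7.25% held a kappa B motif. Promoter windows were matched for 9 of the 10 members, 13 windows in all, of which 3 held a STAT motif and 2 a kappa B motif. Nfkbid has 3 annotated starts, and its other 2 windows each held a STAT motif. These matches describe letters in a window, and no measurement of binding was made.

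Several features of the arrays bear on what follows. The deposited values are MAS5 signal, scaled so that the mean without the lowest and highest 2% was 500 on every array. The arrays nevertheless fell into a low set of 6 with median signals of 156.4 to 188.7, namely the arms without canertinib up to day 7, and a high set of 10 with medians of 244.0 to 265.1. The ratio of 3′ to 5′ Gapdh signal was 0.95 to 2.25 on the 8 canertinib arrays and 0.765 to 0.869 on the others, and its part in the differences below was not tested. Hepatocyte markers were strong on all arrays, with summed signals of 163353 to 549130. Met itself ranged from 982 to 2066 in knockout arms and from 1041 to 2014 in flox arms. The sources used here do not place its probe set relative to exon 16, so it does not check the deletion. MET_KO_canertinib at day 14 stood apart: its summed signal over 11 neutrophil markers was 48167, against 7349 in MET_FLOX, 6620 in MET_KO and 7910 in MET_FLOX_canertinib on that day. Most of that sum came from S100a8, S100a9 and Ngp, at 22731, 10668 and 6180. On this array 8 of the 11 markers were at their highest, against 14.7% of all genes tested. Ltf, Cxcr2 and Csf3r were highest on other arrays, and Cxcr2, at 124.7, lay below its median of 135.4 over the 16 arrays.

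The MET_KO_canertinib day 14 array carried the highest signal of all 16 for 8 of the 10 members: Il6st, Stat3, Socs3, Il1b, Il1rn, Tnf, Nfkbia and Nfkbiz. Among the 9 members that passed the filter the count was 7, while 14.7% of all genes tested (1994 of 13575) had their highest signal there. Over all 27 probe sets of the members, 22 were highest on it, including all 4 of Stat3, all 3 of Socs3, Il1rn and Nfkbiz, 4 of 5 of Nfkbia and 3 of 4 of Il6st. The exceptions among the genes were Il6ra, highest in MET_FLOX_canertinib at day 7, and Nfkbid, highest in MET_KO_canertinib at day 2. This pattern was noticed after the values were seen, rests on a single array, and was not tested.

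**Figure D1:**
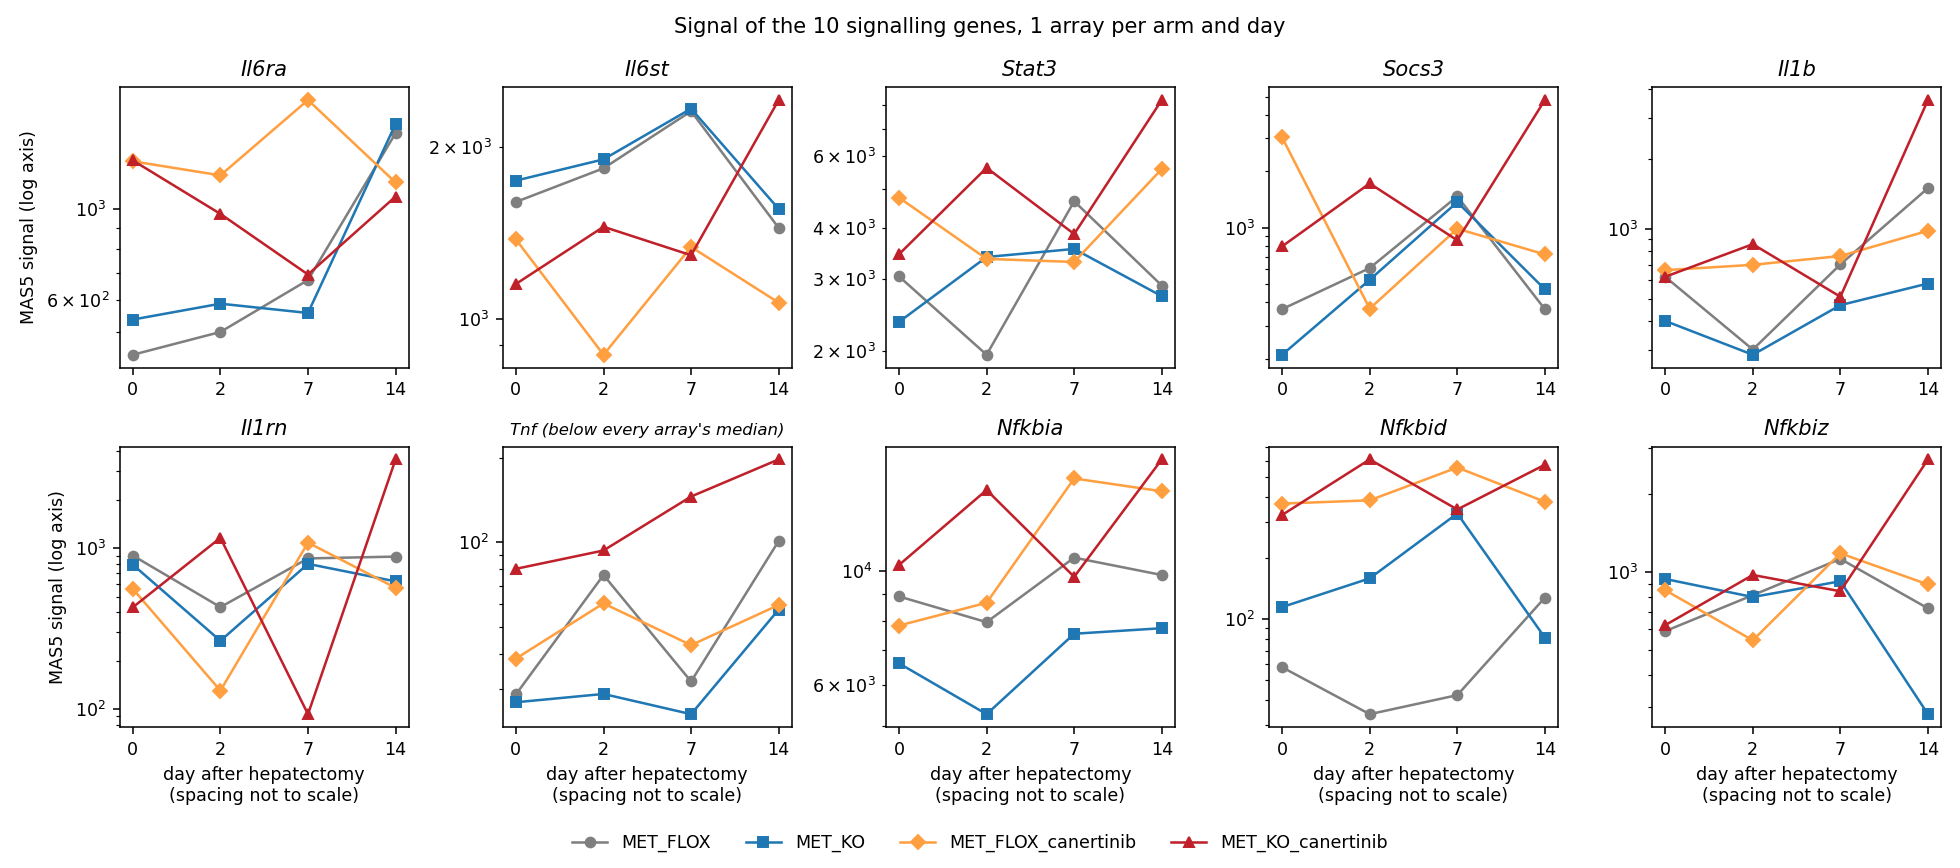
MAS5 signal on a log axis for each of the 10 genes by day after partial hepatectomy, with 1 point per array and 1 line per arm. MET_KO_canertinib (red triangles) ends at day 14 on the highest point of the panel for 8 genes, reaching 4798 for Socs3, while Nfkbid lies at 325 or above on all 8 canertinib arrays.

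Signals below are given in the order of days 0, 2, 7 and 14. Differences are on the log2(signal + 16) scale, positive where the arm named first is higher, with the standard error of a limma fit that has arm and day as terms and 9 residual degrees of freedom. A gene was called where its Benjamini-Hochberg adjusted p over all 13575 genes was below 0.05 in a two-sided test. With 8 canertinib arrays against 8 others, 34.6% of all genes were called (4697), of which 69.3% were higher, and the median difference over all genes was 0.14. Of the 9 members tested, 6 were called, 5 higher and 1 lower. Among the 5, Nfkbid had passed the filter only through the canertinib arrays. When each array was centred on its own median, 28.6% of the called genes were higher, the median moved to -0.15, and only Il6st and Nfkbid of the members were still called. With the array set as a further term the canertinib difference is that of day 14 alone. In that fit 0.11% of all genes were called (15), and 0 members were, although 5 of 9 members had an unadjusted p below 0.05, as had 12.6% of all genes (1706).

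Among the receptor genes, Il6ra was called higher and Il6st lower with canertinib. Il6ra, which encodes the ligand-binding chain, read 441, 501, 671 and 1537 in MET_FLOX livers, with 537, 588, 558 and 1619 in MET_KO. With canertinib it read 1311, 1211, 1852 and 1164 in MET_FLOX_canertinib livers, with 1318, 975, 693 and 1075 in MET_KO_canertinib. The canertinib arrays were higher at days 0, 2 and 7 in both genotypes and lower at day 14 in both. The 6 arrays of the low set were also the 6 lowest for Il6ra, with no overlap with the other 10. The difference over all days was 0.69 ± 0.24 (SE, n = 8 against 8; limma adjusted p = 0.0358), a 1.62-fold rise, whereas the value with array set as a term was -0.49 ± 0.31 (adjusted p = 0.571). Array set and canertinib cannot be told apart at days 0, 2 and 7. A further Il6ra probe set, with signals of 94.1 to 908, was higher by 1.23 ± 0.27 and stayed at 0.94 with the array set as a term, so the 2 probe sets of the gene disagreed in sign under that fit.

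Il6st, the gene of gp130, the signal-transducing chain of the whole interleukin 6 family, read 1602, 1834, 2307 and 1444 in MET_FLOX livers, with 1746, 1901, 2331 and 1558 in MET_KO. These courses ran close together, both highest at day 7. With canertinib it read 1378, 867, 1337 and 1069 on flox livers and 1152, 1450.0, 1293 and 2413 on knockout livers. Of the 8 canertinib arrays 6 lay below all 8 others, and MET_KO_canertinib at day 14 lay above all of them. Il6st fell with canertinib by 0.46 ± 0.17 (SE; limma adjusted p = 0.0448), and by 0.61 ± 0.13 (adjusted p = 0.00371) without MET_KO_canertinib day 14. It was called in only 4 of the 16 fits that left out 1 array each, with values of -0.61 to -0.37 and adjusted p up to 0.102. Once array set was a term the value was 0.10 ± 0.29. Of its other 3 probe sets, 2 were lower by 0.61 and 0.67 on the log2 scale and the third was 0.34 higher.

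Stat3, the transcription factor that the receptor activates, was higher with canertinib by 0.61 ± 0.20 (SE; limma adjusted p = 0.0329), a 1.52-fold rise. Without the drug it read 3048, 1961, 4655 and 2896 in MET_FLOX livers, with 2359, 3401, 3559 and 2728 in MET_KO. With the drug the signals were 4751, 3365, 3307 and 5582 in MET_FLOX_canertinib livers, with 3454, 5621, 3871 and 8235 in MET_KO_canertinib. The groups overlapped, with 4 of 8 canertinib arrays above every array without the drug. Leaving out MET_KO_canertinib day 14 ended the call, at 0.50 ± 0.19 (adjusted p = 0.0550). So did leaving out other arrays, and Stat3 was called in 8 of the 16 fits that left out 1 array each. At day 14 alone the difference was 1.27 ± 0.36 (adjusted p = 0.176). The other 3 probe sets gave 0.36, 0.43 and -0.14 and were not called.

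Socs3, the feedback inhibitor of gp130 signalling, was not called, at 1.10 ± 0.49 (SE; limma adjusted p = 0.0897). Without canertinib the courses of both genotypes ran alike, 368, 609, 1469 and 367 in MET_FLOX livers, with 209.8, 527, 1369 and 469 in MET_KO, highest at day 7. With canertinib they did not: MET_FLOX_canertinib read 3027, 369.7, 987 and 719.8, and MET_KO_canertinib read 795, 1722, 856 and 4798. Thus the highest array of the first was day 0 and that of the second was day 14. All 3 Socs3 probe sets gave canertinib differences of 1.01 to 1.10, none called, and all 3 were highest on MET_KO_canertinib day 14, at 3524 to 7181. Of all genes tested, those most like Socs3 over the 16 arrays were 2 genes from the list of induced targets described below. That list was chosen with earlier results of these data known, so membership in it is not independent of these arrays. Cxcl1, a neutrophil-attracting chemokine, had a Pearson r of 0.92 and Steap4, a metalloreductase, 0.91. All such values share arrays and scaling and are given as descriptions.

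**Figure D2:**
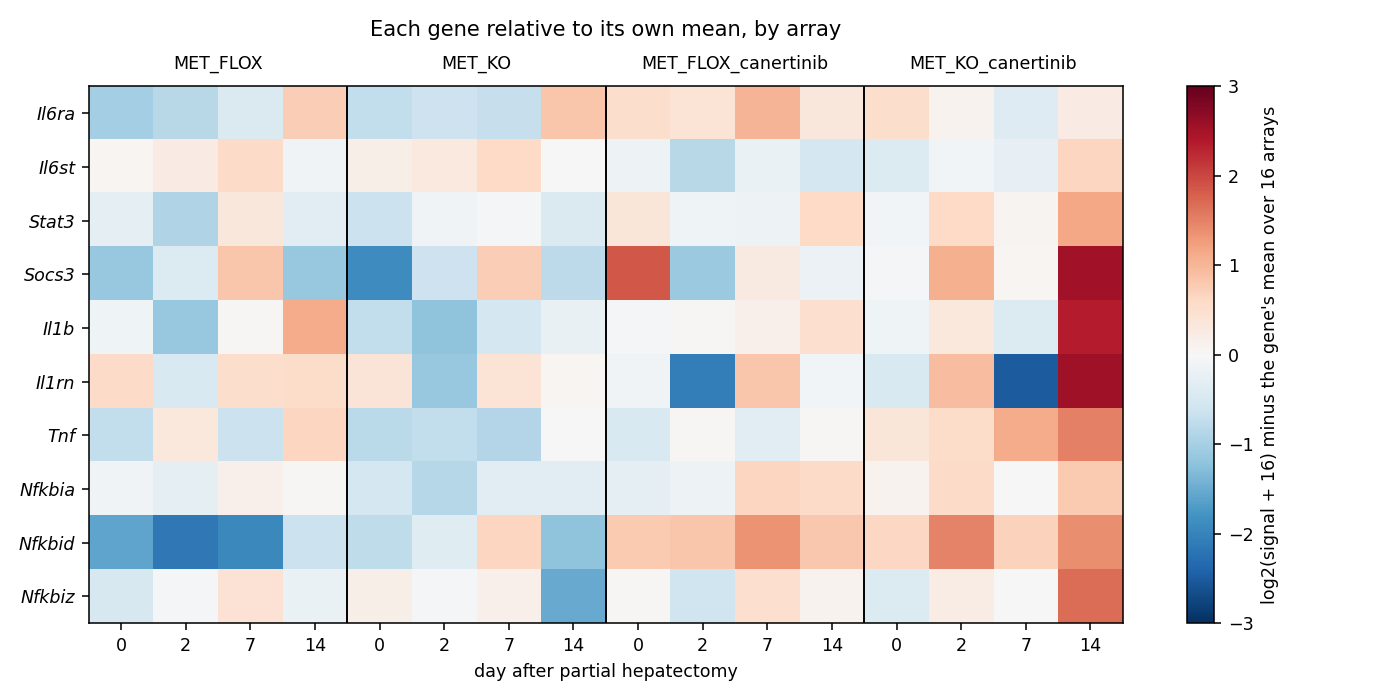
Each gene's log2(signal + 16) minus its own mean over the 16 arrays, in rows, by arm and day, in columns; red is above and blue below the mean. The last column, MET_KO_canertinib day 14, is above the mean for all 10 genes, and the Nfkbid row is above it on all 8 canertinib arrays.

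Of the cytokine genes, Il1b was called and Il1rn was not. Il1b, which encodes the inflammatory cytokine interleukin 1 beta, read 620.4, 302, 702 and 1495 in MET_FLOX livers, with 401, 287, 469 and 581 in MET_KO. The canertinib arms read 663, 699, 762 and 979 in MET_FLOX_canertinib livers, with 621, 858, 509 and 3580.5 in MET_KO_canertinib. Only the last array lay above all arrays without the drug. The canertinib difference was 0.70 ± 0.25 (SE; limma adjusted p = 0.0419) and was not called, at 0.51 ± 0.21 (adjusted p = 0.0701), without that array. Between MET_KO_canertinib and MET_KO it was 1.21 ± 0.35 (adjusted p = 0.0487), or 0.82 ± 0.31 (adjusted p = 0.0829) without that array. Other arrays mattered too: among the 16 fits that left out 1 array each, the difference over both genotypes was called in 5. That of the knockout livers was called in 3. Day 14 against day 0 was 1.20 ± 0.35 (adjusted p = 0.167), with all 4 arms higher at day 14. Csf2rb2, a receptor subunit for interleukin 3, and Scgn, a calcium-binding protein, were the genes most like Il1b, with r of 0.91 and 0.90 over 16 arrays.

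Il1rn encodes the interleukin 1 receptor antagonist, the secreted brake on interleukin 1. It read 899.8, 430.0, 863 and 886 in MET_FLOX, 789.6, 266, 799 and 621 in MET_KO, and 558, 130.1, 1082 and 567 in MET_FLOX_canertinib. In these 3 arms day 2 was the lowest. MET_KO_canertinib read 429, 1159.5, 92.9 and 3562, so day 2 was its second highest array. The canertinib difference was -0.23 ± 0.54 (SE; limma adjusted p = 0.768), but the gene's other 2 probe sets gave 0.85 ± 0.25 (adjusted p = 0.0261) and 1.47 ± 0.39 (adjusted p = 0.0169) when all probe sets were tested without the filter. Those 2 did not show the low readings of the first, 130.1 on MET_FLOX_canertinib day 2 and 92.9 on MET_KO_canertinib day 7. They read 536 and 498 on the former array and 461 and 509 on the latter. The 3 probe sets agreed on MET_KO_canertinib day 14, where they read 3562, 2431 and 8041 and were each at their highest.

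Tnf, the tumour necrosis factor gene, gave 28.6, 76.4, 31.8 and 101 in MET_FLOX, 26.8, 28.7, 24.3 and 57.5 in MET_KO, and 38.4, 60.5, 42.9 and 59.7 in MET_FLOX_canertinib. MET_KO_canertinib gave 80.4, 93.5, 146 and 198. At each day this arm was the highest of the 4, although all 16 signals lay below the array medians. Fitted without the filter, Tnf was 0.71 ± 0.22 higher with canertinib (SE; limma adjusted p = 0.0303) and 1.50 ± 0.32 higher in MET_KO_canertinib than in MET_KO (adjusted p = 0.0295). No detection call was used.

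The cytokines of Il1b and Tnf are made largely by leukocytes. Of 12 macrophage markers 0 were called with canertinib, with a median difference of -0.12, and their summed signal was 19411 to 84288 with canertinib and 16656 to 71513 without. Of 9 neutrophil markers tested 6 were called higher and 0 lower (median 0.83), led by Ngp (1.20 ± 0.22) and Mpo (0.96 ± 0.20), both granule proteins, as limma called at adjusted p = 0.00323 and 0.00498, and 2 (Ngp and Mpo) were still called after median centring. The summed signal of the 11 measured was 4796 to 48167 with canertinib and 2723 to 7349 without. The lowest neutrophil markers were Camp, at 6.7 to 27.4 without the drug and 398 at its highest, and Cxcr2, at 53.4 to 198.9. Of 6 lymphocyte markers 4 were higher, including Cd8a (1.09) and Ms4a1 (1.11), while Cd3d, a defining T cell gene, lay at 6.7 to 82.2 on all arrays. With the array set as a term 0 neutrophil and 0 lymphocyte markers were called, and the medians of these lists were 0.42 and -0.03. Of 10 hepatocyte markers 4 were called higher and 0 lower (median 0.46), a share close to the 34.6% of all genes called. The median of their summed signal was 499656 with canertinib and 297709 without. With the array set as a term 0 hepatocyte markers were called (median 0.11), and after median centring 3 were called higher (median 0.16). The part of cell numbers in the member differences was not tested, and in whole liver more cells of a type and more RNA per cell cannot be told apart.

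The inhibitor genes of NF-kappa-B held the largest difference. Nfkbid, whose product IkB-NS is a nuclear regulator of NF-kappa-B, gave 58.0, 34.1, 42.3 and 128 in MET_FLOX livers, with 115, 159, 330.4 and 81.1 in MET_KO. On the drug its signals were 369.6, 384, 556 and 378 in MET_FLOX_canertinib livers, with 325, 609.5, 346 and 574 in MET_KO_canertinib. On 7 of 8 canertinib arrays the signal lay above every array without the drug, and the overlap came from MET_KO day 7 alone. Of all genes tested, 1.19% (161) had canertinib and other arrays that did not overlap in either direction, and 0 members did. Nfkbid was higher with canertinib at all 4 days in both genotypes, by 2.0 ± 0.31 overall on the log2(signal + 16) scale (SE; limma adjusted p = 0.00187). It passed the filter only through the canertinib arrays, of which all 8 lay above their own median against 2 of 8 others, so its place among the members tested was not independent of the drug. Fitted without the filter its adjusted p was 0.00222. The value at day 14 alone, with the array set as a term, was 2.03 ± 0.61 (adjusted p = 0.198). It was 2.53 ± 0.43 higher in MET_FLOX_canertinib than in MET_FLOX (adjusted p = 0.0193) and 1.47 ± 0.43 higher in MET_KO_canertinib than in MET_KO (adjusted p = 0.0496). All 4 MET_FLOX signals lay below their array medians and no detection call was used, so no fold is given. The last of these was called in 2 of 16 fits that left out 1 array each, where it ranged from 1.08 to 1.86, and without MET_KO_canertinib day 14 it was 1.36 ± 0.49 (adjusted p = 0.0706), and it was not called without the filter (adjusted p = 0.0594). The interaction, -1.06 ± 0.61, was not called. The gene has a single probe set.

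Nfkbia, which encodes IkB-alpha, the classical inhibitor that NF-kappa-B induces, read 8918, 7947, 10612 and 9818 in MET_FLOX livers, with 6608, 5261, 7545 and 7734 in MET_KO. With canertinib it read 7827, 8668, 15134 and 14289 in MET_FLOX_canertinib livers, with 10269, 14371, 9738 and 16482 in MET_KO_canertinib. Of the 8 canertinib arrays 4 exceeded all others. The difference was 0.57 ± 0.15 (SE; limma adjusted p = 0.0127), a 1.48-fold rise, and in MET_KO_canertinib against MET_KO it was 0.88 ± 0.21 (adjusted p = 0.0323), with all 4 days higher. Its 5 probe sets split: 2 were called higher, at 0.57 and 0.47, and 3 lay at 0.11, 0.11 and -0.02. At day 14 the values of these 3 were 0.91, 0.67 and 0.68, again with the array set as a term. Most like Nfkbia were Setd7, a lysine methyltransferase (r = 0.90), and Fam117b (r = 0.87).

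Nfkbiz, whose product IkB-zeta helps NF-kappa-B activate a second wave of genes, was not called, at 0.39 ± 0.31 (SE; limma adjusted p = 0.342). It gave 590.2, 812, 1120.3 and 723 in MET_FLOX, 938, 799, 919 and 282 in MET_KO, and 849, 544, 1177 and 893 in MET_FLOX_canertinib. MET_KO_canertinib gave 622, 972, 841 and 2709.7, and the lowest and the highest of the 16 arrays were thus the knockout livers of day 14 without and with the drug. At day 14 alone the difference was 1.75 ± 0.47 (adjusted p = 0.158), made of 0.30 on flox and 3.19 on knockout livers. Of its other 2 probe sets, fitted among all probe sets without the filter, one was called higher at 0.79 ± 0.25 (adjusted p = 0.0305) and one was at 0.41 ± 0.18 (adjusted p = 0.101). On these 2, in that order, MET_KO day 14 read 178 and 340 and MET_KO_canertinib day 14 read 397 and 995. Their lowest arrays were MET_FLOX day 0, at 56.2, and MET_KO day 2, at 259.9. The very low MET_KO day 14 signal behind the 3.19 was thus seen on 1 probe set.

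**Figure D3:**
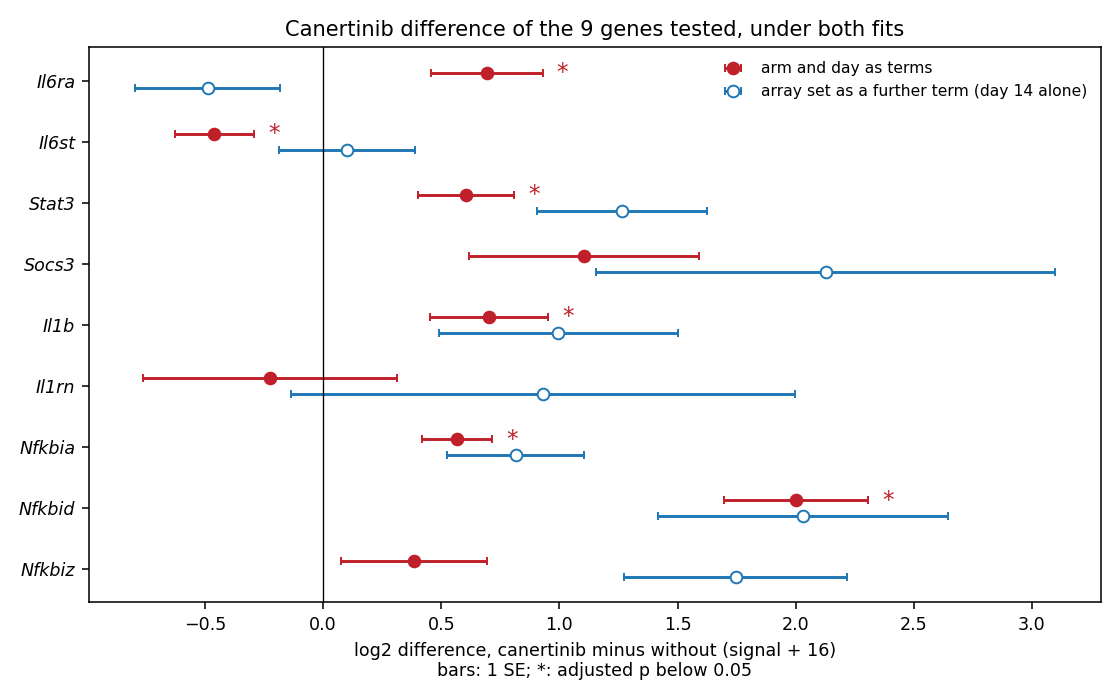
Canertinib difference in log2(signal + 16) for the 9 genes tested, with bars of 1 standard error, from the fit with arm and day (filled) and with the array set as a further term (open); stars mark an adjusted p below 0.05. Il6ra moves from 0.69 to -0.49 and Il6st from -0.46 to 0.10 between the fits, while Nfkbid stays at 2.0 and 2.03.

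**Figure D4:**
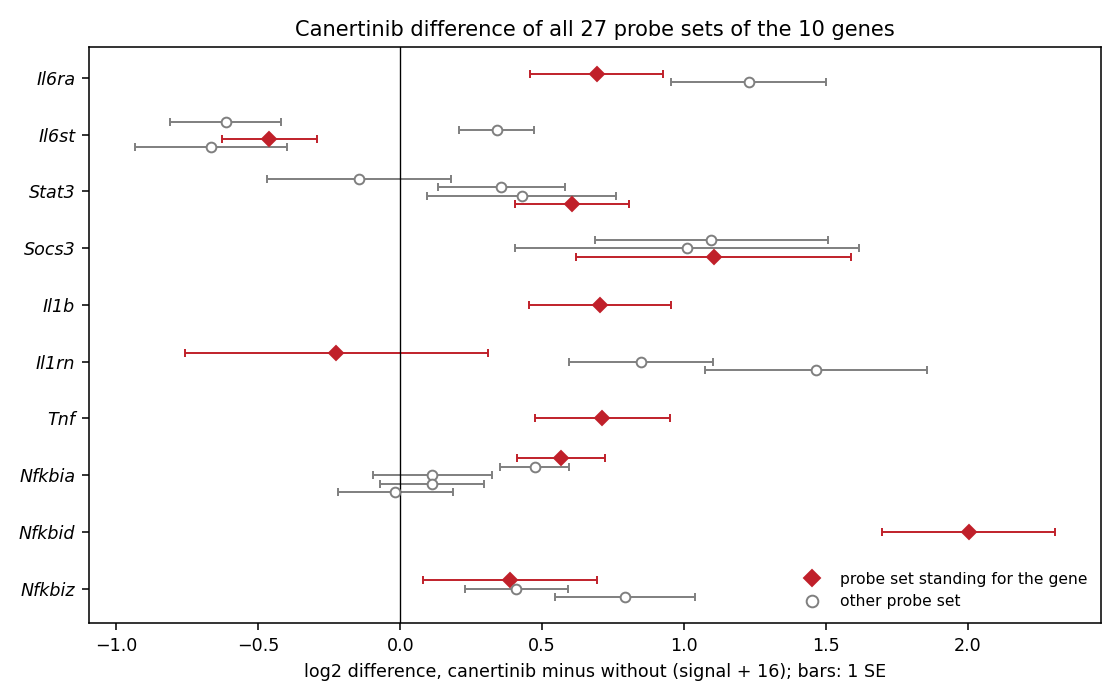
Canertinib difference in log2(signal + 16) of all 27 probe sets of the 10 genes, each with a bar of 1 standard error, with the probe set that stood for the gene as a filled diamond. Probe sets of Il6st, Stat3, Il1rn and Nfkbia lie on both sides of 0, and 21 of 27 are above it.

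The pairs of arms gave fewer calls. MET_FLOX_canertinib against MET_FLOX called 6.71% of all genes and 1 member, Nfkbid. MET_KO_canertinib against MET_KO called 8.23% of genes and 3 members, Nfkbia, Il1b and Nfkbid. Combined blockade against no blockade, MET_KO_canertinib against MET_FLOX, called 2.87% of genes and 1 member, Nfkbid, at 2.63 ± 0.43 (SE; limma adjusted p = 0.0189). This comparison and the flox pair share the MET_FLOX arrays. With the array set as a term these comparisons called 0.0663%, 0.0737% and 0.0368% of genes, in that order, and 0 members each. Nfkbid passed the filter only through the canertinib arrays, with 0 MET_FLOX arrays above their own median. Its calls above were therefore not independent of the drug. Fitted among all probe sets without the filter, it was at limma adjusted p = 0.0124 in the flox pair and 0.0646 in the knockout pair.

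The deletion of Met alone was not accompanied by a called change in any member. Knockout arms against flox arms called 0% of genes, as did MET_KO against MET_FLOX (0 of 13575 each in limma, with 322 and 350 genes at an unadjusted p below 0.05). Under canertinib, MET_KO_canertinib against MET_FLOX_canertinib called 0.00737% of genes and 0 members. In MET_KO against MET_FLOX, Nfkbid was 1.16 ± 0.43 higher (unadjusted p = 0.0175, limma adjusted p = 0.9999) and Nfkbia was at -0.47 ± 0.21 (unadjusted p = 0.0449). The genotype by canertinib interaction called 0.0147% of genes and 0 members. Its largest values were -1.06 ± 0.61 for Nfkbid, 1.02 ± 0.50 for Il1b and 0.87 ± 0.98 for Socs3. For Tnf, fitted without the filter, the interaction was 1.58 ± 0.45 (limma adjusted p = 0.727).

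Across days no member was called either. Day 2 against day 0 called 0.383% of genes, day 7 called 0.00737% and day 14 called 0.081%, with 0 members in each. At day 2 the differences from day 0, averaged over the 4 arms, lay between -0.78 (Il1rn) and 0.20 (Nfkbid) for the members that passed the filter. Such averages hide arms that differed in sign. Socs3 changed by -2.98 in MET_FLOX_canertinib and by 0.70, 1.27 and 1.10 in MET_FLOX, MET_KO and MET_KO_canertinib. Il1rn changed by 1.40 in MET_KO_canertinib and by -1.04, -1.52 and -1.975 in MET_FLOX, MET_KO and MET_FLOX_canertinib. At day 14 Il1b (1.20), Il6ra (0.72 ± 0.33) and Nfkbia (0.48 ± 0.21) had unadjusted p of 0.00402, 0.0490 and 0.0398 in the limma fit. For Il6ra the day 14 difference was 1.77 in MET_FLOX livers and 1.56 in MET_KO livers, against -0.17 and -0.29 in the canertinib arms. In MET_FLOX and MET_KO, day 0 lay in the low array set and day 14 in the high set. A late rise and a change of set therefore cannot be told apart in these arms. When the fit also held the array set, day 14 against day 0 was -0.07 ± 0.28 for Il6ra. It was 1.40 ± 0.46 for Il1b and 0.64 ± 0.26 for Nfkbia.

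The other genes of these pathways were read from 5 lists. Of 7 tested genes of interleukin 6 family ligands and receptors, 2 were higher with canertinib and 0 lower: Osm, encoding oncostatin M (0.95 ± 0.30), and Ctf1, encoding cardiotrophin 1 (0.34 ± 0.11), with limma adjusted p of 0.0263 and 0.0300. The list's median was 0.40 against 0.14 for all genes. Il6 itself did not pass the filter and lay at 104.7 to 303.6 with canertinib and 42.0 to 166 without, highest on MET_KO_canertinib day 14. Among 16 JAK, STAT and brake genes, 5 were called higher and 2 lower (median 0.33). They included Socs1 (1.31 ± 0.30), Socs2 (0.59 ± 0.15) and Pias4 (0.57 ± 0.11), inhibitors of cytokine signalling, and Jak1, a kinase on gp130, which fell by 0.53 ± 0.13 on the log2 scale. Jak1, like Il6st, was lower with canertinib, and the limma adjusted p of these 4 were 0.00629, 0.0108, 0.00418 and 0.0101.

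Of 18 interleukin 1 and TNF ligands, receptors and adaptors, 2 were called higher and 1 lower (median 0.03). Tnfrsf1a, the main receptor of tumour necrosis factor, was 0.46 ± 0.16 higher, Il18 was 0.38 ± 0.14 higher, and Irak1, a kinase below the interleukin 1 receptor, was lower at -0.67 ± 0.18 (limma adjusted p = 0.0364, 0.0469 and 0.0147). The 20 tested NF-kappa-B subunits, kinases and inhibitors held 5 called higher and 0 lower (median 0.16). Nfkb2, the p100 subunit of the non-canonical branch, rose by 1.57 ± 0.29, Rel by 0.96 ± 0.25, Nfkbie, a further IkB, by 0.69 ± 0.17, and Cyld, a deubiquitinase that curbs the pathway, by 0.54 ± 0.14 (limma adjusted p = 0.00317, 0.0108, 0.00986 and 0.0103). Of 24 induced targets 5 were called higher and 0 lower (median 0.34). Among them were Cxcl2, a neutrophil-attracting chemokine (1.64 ± 0.38), Fgl1, a liver-secreted protein (1.02 ± 0.20), Tlr2, a receptor for bacterial lipoproteins (0.64 ± 0.22), and Timp1, a protease inhibitor (0.49 ± 0.15), at limma adjusted p of 0.00701, 0.00426, 0.0348 and 0.0222. Of these 24 targets 15 were highest on MET_KO_canertinib day 14, against 14.7% of all genes tested. This count rests on 1 array and was not tested. The sum of the 24 signals there was 192248, against 66146 in MET_FLOX_canertinib, 67465 in MET_KO and 87664 in MET_FLOX at that day. A few strong genes carried much of that sum, such as Hamp at 44613 and Fgl1 at 43284. Hamp, Steap4 and Cxcl1 were highest on MET_FLOX_canertinib day 0. With the array set as a term 0 genes were called in each of the 5 lists. After median centring the lists held, in the order given, 0, 1, 0, 2 and 2 genes called higher and 0, 2, 3, 5 and 1 called lower. Socs1, Nfkb2, Rel, Cxcl2 and Fgl1 were the genes still called higher under that scaling, and Jak1 and Irak1 were among those still lower. Centring moved all genes alike: the median of the NF-kappa-B list went from 0.16 to -0.14 and that of all genes from 0.14 to -0.15, so the list lay close to all genes under both. The share called exceeded the 34.6% of all genes for the JAK and STAT list alone and was below it for the other 4.

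Stat3 over the 16 arrays was most like Cpne8, a calcium-dependent membrane-binding protein (r = 0.89), and Apcs, an acute phase protein in mice (r = 0.85). These correlations and those given for Socs3, Il1b and Nfkbia were 0.81 to 0.91 after each array set's mean was removed. For Il6ra and Nfkbid, the highest r to another gene fell from 0.93 to 0.67 and from 0.88 to 0.76 in that step.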

How the data were processed

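Liver RNA (6 ug of total RNA per the labels' protocols) was hybridised to 16 Affymetrix arrays. The deposited values are signal intensity on a linear scale for 45101 probe sets, made by the authors with MAS5 per the submitters' processing notes; the version used is not stated in these sources. Of these, 34945 probe sets were annotated to 1 gene, 932 to several and 9160 to none, 64 were controls, and only the first kind was used. From the deposited intensity the log2 of signal plus 16 was computed here. Probe sets above their array's median on at least 4 of 16 arrays were kept (22315), and the one with the highest mean log2 value stood for its gene.

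Arms, genotypes, canertinib and days were compared with limma 3.58.1 in R 4.3.3 (arm and day as terms, eBayes with an intensity trend), after the procedure was tested on simulated data. No arm has a replicate array at a day, so the course of an arm over its days is part of the error. The array set was seen in the data and is named by no label. Python 3.11.15 was used for tables and motif searches. Alternatives covered the pseudocount, the filter, median centring, quantile normalization, the array set as a term, each probe set on its own and each array left out; picking probe sets by mean linear signal and leaving out the day term were added after seeing the data.

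The members and the lists were chosen with earlier results of these data known. All 10 members are named in every comparison; of each pathway list, the called genes with the smallest p in the canertinib comparison, at most 4; of each marker list at most 2 called genes and the markers of lowest signal; and the 2 genes most correlated with Socs3, Stat3, Il1b and Nfkbia. Il6 was named after its values were seen. The number of arrays limits the precision.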

Additional observations from a re-analysis of the deposited data

Results flagged for a closer look

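In each arm, the highest or lowest of the 4 arrays was compared with the gap to its neighbour for all 10 members, which gave 40 groups, and 6 single arrays lay farther from the rest than Dixon's criterion allows. The 4 arrays of an arm are different days and not replicates, and chance alone marks about 1 group in 20. Il6ra in MET_KO was 1619 at day 14 against 537 to 588 at the other days. Il1b in MET_KO_canertinib was 3580.5 at day 14 against 509 to 858. Il1rn in MET_FLOX was 430.0 at day 2 against 863 to 899.8. Tnf in MET_KO was 57.5 at day 14 against 24.3 to 28.7, all low signals. Nfkbid in MET_FLOX_canertinib was 556 at day 7 against 369.6 to 384. Nfkbiz in MET_KO_canertinib was 2709.7 at day 14 against 622 to 972. Of these 6 arrays 4 were from day 14.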

How the results depend on the processing

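The count of 6 members called with canertinib became 2 when arrays were centred on their medians (Il6st and Nfkbid), 3 after quantile normalization (Stat3, Nfkbia and Nfkbid) and 0 once array set was a term. Centring moved the median difference of all genes from 0.14 to -0.15 and the share of called genes that were higher from 69.3% to 28.6%. The difference of Nfkbid went from 2.0 to 1.71 and that of Il6st from -0.46 to -0.75, so both moved about as much as that median. Nfkbid lay above the median of all genes and Il6st below it in both fits. With array set in the fit 26.7% of the 15 called genes were higher. Under the same term Il6ra reversed to -0.49 and Il6st to 0.10, the counts for MET_FLOX_canertinib against MET_FLOX and MET_KO_canertinib against MET_FLOX went from 1 to 0, and that for MET_KO_canertinib against MET_KO from 3 to 0; that fit rests on the 4 arrays of day 14 for these differences. The last count was also 0 after centring and 1 after quantile normalization (Nfkbia), and the cause was not tested.

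Leaving out each array in turn gave 2 to 6 members with canertinib, 0 to 2 for MET_FLOX_canertinib against MET_FLOX, 0 to 3 for MET_KO_canertinib against MET_KO and 0 to 1 for MET_KO_canertinib against MET_FLOX. The first count was 2 without MET_KO_canertinib day 2, MET_KO day 0 or MET_FLOX day 2, and 3 without MET_FLOX_canertinib day 0, 2 or 7, MET_KO day 2 or MET_FLOX day 0 or 7. The flox pair had 0 calls without day 0, 2 or 7 of MET_FLOX_canertinib or day 2 or 7 of MET_FLOX. The knockout pair had 0 without day 0 or 2 of MET_KO_canertinib or day 0, 2 or 7 of MET_KO, and 1 without MET_KO day 14, MET_FLOX day 0 or 7, or day 0, 2 or 7 of MET_FLOX_canertinib. Combined blockade against MET_FLOX had 0 without MET_KO_canertinib day 2 or day 0, 2 or 7 of MET_FLOX. With canertinib, Nfkbid (1.81 to 2.20) and Nfkbia (0.48 to 0.67) were called in all 16 of these fits, Stat3 in 8, Il6ra and Il1b in 5 each and Il6st in 4. The fit used throughout pairs the arms by day, since day is one of its terms; without this replicate block, a setting added after seeing the data, the members called with canertinib were 4 (Il6st, Stat3, Nfkbia and Nfkbid) and those for MET_KO_canertinib against MET_KO were 0, while the counts of the other arm comparisons were the same.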
